A study of Mus musculus with 6 samples.

Results

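The uncoupling proteins and adenine nucleotide carriers of mouse pancreatic islets were examined after exposure to CMPF. The group was defined by 7 gene symbols, Ucp1, Ucp2, Ucp3, Slc25a14, Slc25a27, Slc25a4 and Slc25a5, looked up in the annotation of the array. It found 6 of the 7, which together held 20 of the 45037 probe sets, among 18193 genes in all. Ucp2 was not analysed here. A probe set is a group of short probes against 1 transcript, usually placed toward its 3' end, and the probe set of a gene with the highest mean over the 6 arrays served as its main value. That choice used the level of each probe set and not the difference between the groups. The genes themselves were listed with earlier results of these arrays known, so their counts below are descriptions.

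Carriers of this family sit in the inner mitochondrial membrane. The adenine nucleotide carriers exchange ADP from the cytosol for ATP made in the matrix, and so connect the ATP synthase with the rest of the cell. Uncoupling proteins let protons return to the matrix without ATP synthesis, best shown for UCP1 in brown fat, where fatty acids activate it. In islets the ratio of ATP to ADP sets the membrane potential of the beta cell and thereby insulin release, which is why proton leak has been studied there.

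Islets, which hold the endocrine cells of the pancreas, were isolated from male CD1 mice 8 weeks old and rested overnight in RPMI medium. They then received either vehicle, 0.1% ethanol, or 200 uM CMPF, a furan-containing fatty acid metabolite that circulates in plasma, for 24 hours. There were 3 arrays of vehicle islets and 3 of CMPF islets, numbered 1 to 3 in each group, and arrays of the same number resembled each other, so a pair is here a vehicle array with the CMPF array that shares its number. CD1 is an outbred strain, and the labels do not say whether a number stands for separate mice or pools of mice. Values are RMA levels on the log2 scale, and each difference is the CMPF mean less the vehicle mean on that scale.

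The arrays carried islet RNA: all 9 measured beta cell markers and all 5 measured markers of alpha, delta and PP cells lay above the median of all genes. Exocrine RNA was also present and uneven. The mean log2 value of 11 acinar markers ran from 10.32 to 11.77 on vehicle arrays and from 11.04 to 11.83 on CMPF arrays. The mean of 10 stellate cell and fibroblast markers ran from 8.87 to 9.50 and from 8.43 to 9.80. In such mixed tissue, fewer cells of a type and less RNA per cell cannot be told apart. Limma called 0 of 18193 genes (0%) at an adjusted p under 0.05, both without and with the replicate number as a block. At an unadjusted p under 0.05 it marked 205 genes (1.13%) without the block and 692 (3.8%) with it.

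None of the 6 genes passed the test between CMPF and vehicle. In limma the adjusted p over all genes was 0.99995 for each. The largest positive difference was that of Ucp3, 0.25 (SE 0.107), or 1.19-fold. The largest negative difference was that of Slc25a4, the adenine nucleotide carrier of heart and muscle, at -0.19 (SE 0.089), or 0.877-fold. Ucp1 differed by 0.11 (SE 0.085), Slc25a27 by -0.14 (SE 0.119), Slc25a14 by -0.047 (SE 0.110) and Slc25a5 by -0.041 (SE 0.078). Differences lay within 0.2 log2 units for 5 of the 6 genes and for 92.0% of all genes.

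**Figure D1:**
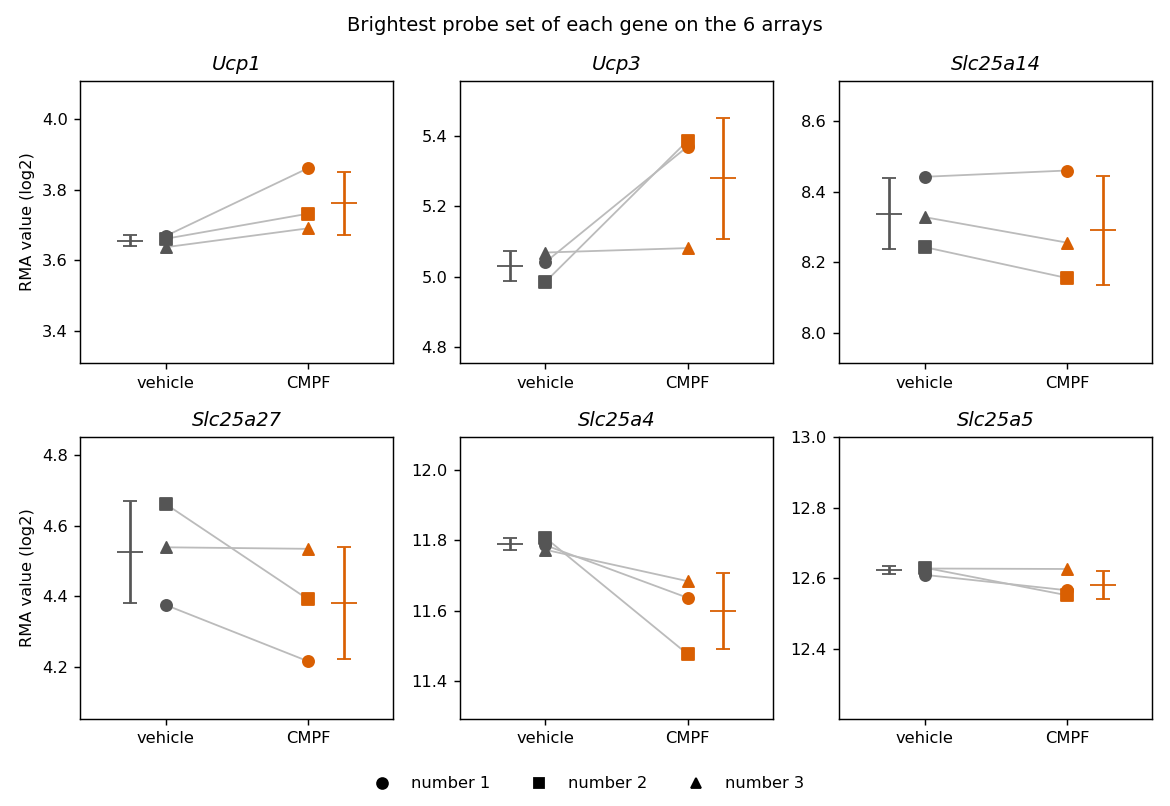
RMA values (log2, vertical axis) of the brightest probe set of each gene for the vehicle (grey) and CMPF (orange) arrays. Each panel spans the same range of log2 units, grey lines join arrays of 1 number, and the side bars are the mean and SD of 3 arrays. Ucp1 and Ucp3 lie higher and Slc25a4 lies lower on all 3 CMPF arrays, and the smallest of these steps is that of number 3.

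Ucp3 encodes the uncoupling protein best known from skeletal muscle, where fatty acids and fasting raise its transcript through PPAR receptors. Its main probe set read 5.04, 4.98 and 5.07 on vehicle arrays 1 to 3 and 5.37, 5.39 and 5.08 on CMPF arrays 1 to 3. The groups did not overlap, but CMPF 3 lay only 0.013 above the highest vehicle array, while CMPF 1 and 2 stood apart. The pair differences were 0.33, 0.40 and 0.013. The 95% interval of the mean difference ran from -0.0041 to 0.50. The size of the difference was exceeded by 3.97% of all genes. The other probe set of Ucp3 read 4.55, 4.58 and 4.91 with vehicle and 4.84, 4.89 and 4.85 with CMPF. Here the groups overlapped through vehicle 3, and the difference was 0.18 (SE 0.117). Both probe sets thus lay higher with CMPF in pairs 1 and 2, whereas in pair 3 the differences were 0.013 and -0.062. Leaving out CMPF 3 raised the main difference to 0.35 and leaving out pair 3 to 0.36, and leaving out pair 2 lowered it to 0.17. The adjusted p was 0.978 or higher in each of these fits. The 9 skeletal muscle markers had a mean log2 value of 4.63, 4.65 and 4.59 with vehicle and of 4.68, 4.85 and 4.59 with CMPF, and 5 of the 9 lay below the lower quartile of all genes. With CMPF, 2 of the 9 were higher in all 3 pairs and 0 lower, where 11.8% of all genes were higher and 11.1% lower. The mean difference was positive for 5 of the 9 and negative for 4. Acta1, the brightest, had pair differences of 0.30, 0.76 and -0.085. Myh2, which was dim, was higher without overlap, by 0.25 (SE 0.101). The part of skeletal muscle RNA in the Ucp3 difference was not tested.

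Ucp1, the heat-producing uncoupling protein of brown fat, was dim throughout. It read 3.67, 3.66 and 3.64 with vehicle and 3.86, 3.73 and 3.69 with CMPF, below the lower quartile of all genes, 4.53. The values carry no detection call, so they do not show whether the transcript was present. The groups did not overlap, with a gap of 0.022 between them, and CMPF 1 stood above the rest. The pair differences were 0.19, 0.071 and 0.054, and the 95% interval of the mean difference ran from -0.094 to 0.31. Of 7 measured adipocyte markers 4 below the lower quartile of all genes, among them Adipoq, the fat cell hormone adiponectin, at 3.19 ± 0.15 (SD, n = 3) in the vehicle group and 3.12 ± 0.15 (SD, n = 3) in the CMPF group. In all 3 pairs 2 of the 7 were higher with CMPF, Cidea by a mean of 0.24 and Retn by 0.14. Adipoq alone was lower in all 3 pairs, with a mean difference of -0.064. Among all genes such a pattern was found in 11.8% upward and 11.1% downward. Lipe differed by -0.23, with pair differences of -0.39, -0.38 and 0.067. The mean difference was positive for 4 of the 7 markers and negative for 3, with a median of 0.015. The part of fat cell RNA in the Ucp1 values was not tested. The mean of the 7 markers ran from 4.66 to 4.78 with vehicle and from 4.60 to 4.86 with CMPF.

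Slc25a4 encodes ANT1, the adenine nucleotide carrier abundant in heart and skeletal muscle, and was bright in islets. Its main probe set read 11.79, 11.81 and 11.77 on vehicle arrays 1 to 3 and 11.64, 11.48 and 11.68 on CMPF arrays 1 to 3. The vehicle arrays lay within a narrow band (SD 0.017), all CMPF arrays lay below them, and CMPF 2 was the lowest. The pair differences were -0.15, -0.33 and -0.089, and the 95% interval of the mean difference ran from -0.40 to 0.020. The size of the difference was exceeded by 9.31% of all genes. The 2 further bright probe sets of the gene showed less, and the choice of the main set was close, with means over 6 arrays of 11.694 and 11.689 for the first and the next. The next set read 11.80, 11.70 and 11.65 with vehicle and 11.68, 11.67 and 11.63 with CMPF, a difference of -0.056 (SE 0.088). The other read 11.61, 11.53 and 11.50 against 11.56, 11.38 and 11.51, a difference of -0.065 (SE 0.094). On both the groups overlapped. The remaining, dim probe set read 3.35, 3.19 and 3.26 with vehicle and 3.09, 3.14 and 3.18 with CMPF, without overlap and with a difference of -0.13 (SE 0.090). All 4 probe sets had a negative difference. Of the 4, 3 were lower in all 3 pairs, the dim one among them, where 11% of all probe sets were. Probe sets of 1 gene on the same arrays are not independent readings. As the mean of its probe sets the gene differed by -0.11 (SE 0.072). Without CMPF 2 the main difference was -0.13, and without pair 2 it was -0.12.

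Ucp1, Ucp3 and Slc25a4 were the genes whose main probe sets did not overlap between the groups, 2 higher and 1 lower with CMPF. Over all genes 4.52% did not overlap, 2.41% higher and 2.11% lower. The 250 bases before the start of these 3 genes are shown because PPAR receptors, which fatty acids activate, bind repeats of the motif AGGTCA. The sequences are RefSeq's on GRCm38.p6, written 5′ to 3′ on the strand of the gene, and capitals mark AGGTCA or CCAAT, the motif read by the factor NF-Y. The windows are chr7:100472741-100472990 (plus strand) for Ucp3, chr8:83290098-83290347 (plus strand) for Ucp1 and chr8:46211063-46211312 (minus strand) for Slc25a4. The windows of Slc25a14 and Slc25a5, which are not shown, held neither AGGTCA nor CCAAT. A relation between these motifs and the differences was not tested.
Ucp3: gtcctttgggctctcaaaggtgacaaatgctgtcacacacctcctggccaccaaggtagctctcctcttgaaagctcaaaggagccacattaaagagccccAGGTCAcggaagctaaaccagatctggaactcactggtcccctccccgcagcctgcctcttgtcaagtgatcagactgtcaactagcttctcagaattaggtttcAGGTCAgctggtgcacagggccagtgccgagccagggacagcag
Ucp1: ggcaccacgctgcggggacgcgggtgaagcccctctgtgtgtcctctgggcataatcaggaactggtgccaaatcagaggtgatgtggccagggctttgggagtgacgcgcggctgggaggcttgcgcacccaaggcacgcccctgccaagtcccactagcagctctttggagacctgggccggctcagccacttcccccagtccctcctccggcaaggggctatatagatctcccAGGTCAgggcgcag
Slc25a4: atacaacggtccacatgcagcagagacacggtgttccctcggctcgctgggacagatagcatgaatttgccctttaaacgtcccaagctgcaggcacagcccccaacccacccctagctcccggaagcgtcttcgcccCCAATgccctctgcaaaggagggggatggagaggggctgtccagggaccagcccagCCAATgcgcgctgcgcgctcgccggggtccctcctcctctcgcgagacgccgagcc
AGGTCA stands in the Ucp3 window at 149 and 44 bases before the start and in the Ucp1 window at 14 bases before it, counted from the first base of the motif. Slc25a4 holds CCAAT at 112 and 56 bases before the start, and no AGGTCA. Of the 32851 windows of this length, searched on both strands, 14% held AGGTCA and 33.8% held CCAAT. The DR1 repeat, AGGTCA and AGGTCA with 1 base between, in 0.0335% of the windows, was in none of the windows of the 5 genes with an entry (all but Slc25a27), nor was ATATAA, in 9.1%. GGGCGG, in 32.7%, was in windows of Slc25a14 and Slc25a5 and in none of the 3 shown. The motifs do not overlap one another except that the repeat contains AGGTCA. In the RefSeq gene table Ucp3 lies directly beside Ucp2, with no other gene listed between them.

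Slc25a5 encodes ANT2, the adenine nucleotide carrier typical of dividing cells, and was read by 8 probe sets. Its main probe set read 12.61, 12.63 and 12.63 with vehicle and 12.57, 12.55 and 12.63 with CMPF. The groups overlapped by 0.017 through CMPF 3, and the pair differences were -0.044, -0.078 and -0.0014. The 95% interval of the mean difference, from -0.22 to 0.14, spans less than that of any of the other 5 genes. Over the 8 probe sets the differences ran from -0.17 to 0.0040 with a median of -0.044, 5 negative and 3 positive. Of the 8, 3 were lower in all 3 pairs, where 11% of all probe sets were. The brighter probe sets with means of 12.35, 12.27 and 11.32 differed by 0.00097, 0.0013 and 0.0040. The dimmer ones at 10.73, 9.45, 8.81 and 8.71 differed by -0.046, -0.17, -0.11 and -0.075, with standard errors of 0.087, 0.185, 0.109 and 0.153. Of the 8 probe sets 6 carry the array's suffix for sets with probes that also match other transcripts, as does 1 of the 4 of Slc25a4. The carrier genes are alike in sequence and have processed pseudogenes, so the signal of these sets may not come from 1 gene.

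**Figure D2:**
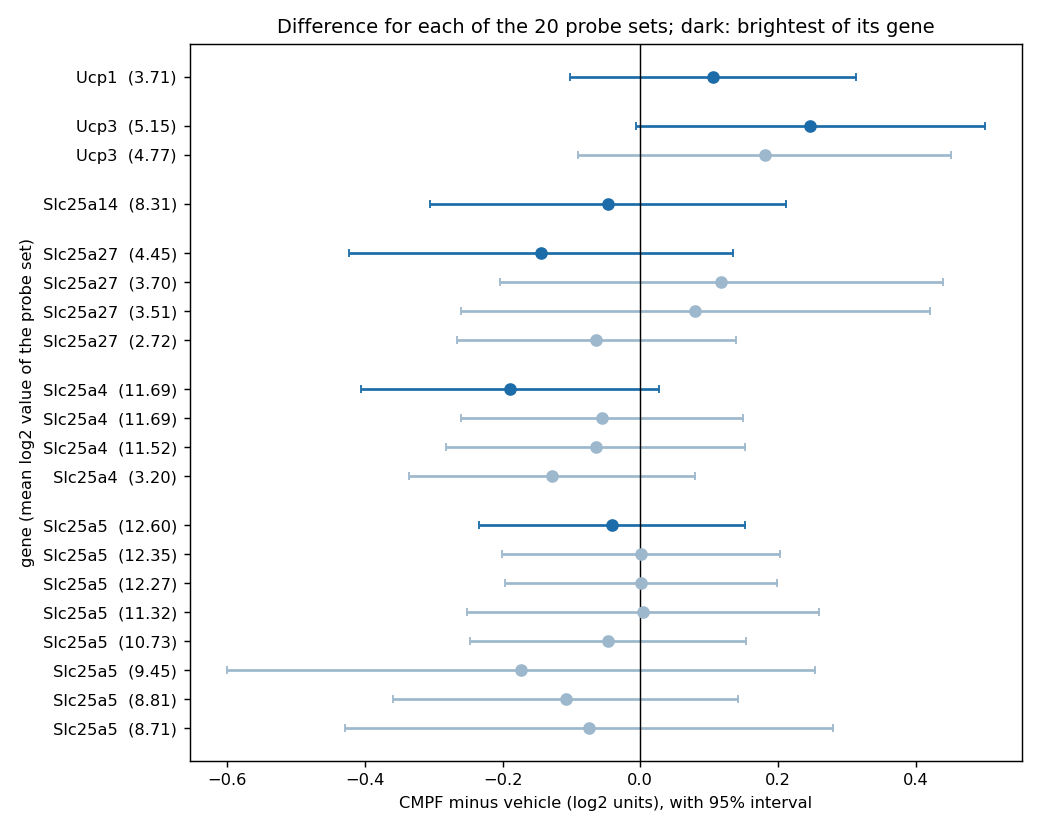
CMPF minus vehicle (log2 units, horizontal axis) for each of the 20 probe sets, with the 95% interval from limma over all probe sets; dark points are the brightest set of a gene and the number in brackets is the mean log2 value. All 20 intervals include 0; both sets of Ucp3 lie to the right of 0, all 4 of Slc25a4 to the left, and the 4 of Slc25a27 on both sides.

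Slc25a27 encodes UCP4, an uncoupling protein homologue of the nervous system. Its main probe set was dim and read 4.38, 4.66 and 4.54 with vehicle and 4.22, 4.39 and 4.53 with CMPF. The groups overlapped, and the pair differences were -0.16, -0.27 and -0.0043. The 95% interval of the mean difference ran from -0.42 to 0.14. Its other 3 probe sets were dimmer still, with differences of 0.12 (SE 0.139), 0.080 (SE 0.147) and -0.064 (SE 0.088). On 2 of them CMPF 1 stood alone, at 4.05 where the other arrays read 3.52 to 3.72, and at 3.88 where the others read 3.33 to 3.53. As the mean of its probe sets the gene differed by -0.0027 (SE 0.087), and 2 of the 4 differences were positive and 2 negative.

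Slc25a14 encodes UCP5, also called BMCP1, the brain mitochondrial carrier protein. Its single probe set read 8.44, 8.24 and 8.33 with vehicle and 8.46, 8.16 and 8.26 with CMPF. Arrays of the same number lay close together, with 1 highest and 2 lowest in both groups. The pair differences were 0.018, -0.088 and -0.072, and the 95% interval of the mean difference ran from -0.30 to 0.21. With the replicate number as a block the standard error was 0.076, against 0.110 without it. The mean of 7 neuron and Schwann cell markers ran from 6.53 to 6.57 with vehicle and from 6.51 to 6.64 with CMPF. Of the 7, 2 lay above the median of all genes. The mean includes Snap25, by far the brightest with a vehicle mean of 10.93, so it is no measure of neural content.

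Across the 6 genes, 5 had the same direction in all 3 pairs, 2 higher and 3 lower with CMPF, where 11.8% of all 18193 genes were higher and 11.1% were lower in every pair. In each of the 5 the smallest of the pair differences was that of pair 3, as in 45.7% of the 4160 genes with 1 direction in all pairs. Pair 3 also had the largest difference in exocrine RNA: the median difference of the acinar markers was 0.27, 0.044 and 0.85 in pairs 1 to 3. The stellate cell and fibroblast markers set pair 3 apart as well, with pair medians of -0.42, -0.55 and 0.33. All 10 of these markers had a negative mean difference, with a median of -0.26, and 0 of the 10 had 1 direction in all pairs. The part of the stellate cell and fibroblast RNA in the differences of the 6 genes was not tested. When the acinar mean entered the fit as a covariate, the differences were 0.23 for Ucp3 (SE 0.118) and -0.17 for Slc25a4 (SE 0.097). In the same fit they were -0.018 for Slc25a14 (SE 0.117) and -0.16 for Slc25a27 (SE 0.132). Over the 20 probe sets, 4 did not overlap between groups, against 5.48% of all probe sets, and limma called 0 of the 20, with an adjusted p of 0.99996 for each. At an unadjusted p under 0.05 it marked 0 of the 20, with or without the block. In the fit over genes it marked 0 of the 6 without the block, where it marked 1.13% of all genes. With the block it marked 1 of the 6, Ucp3, and 3.8% of all genes.

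**Figure D3:**
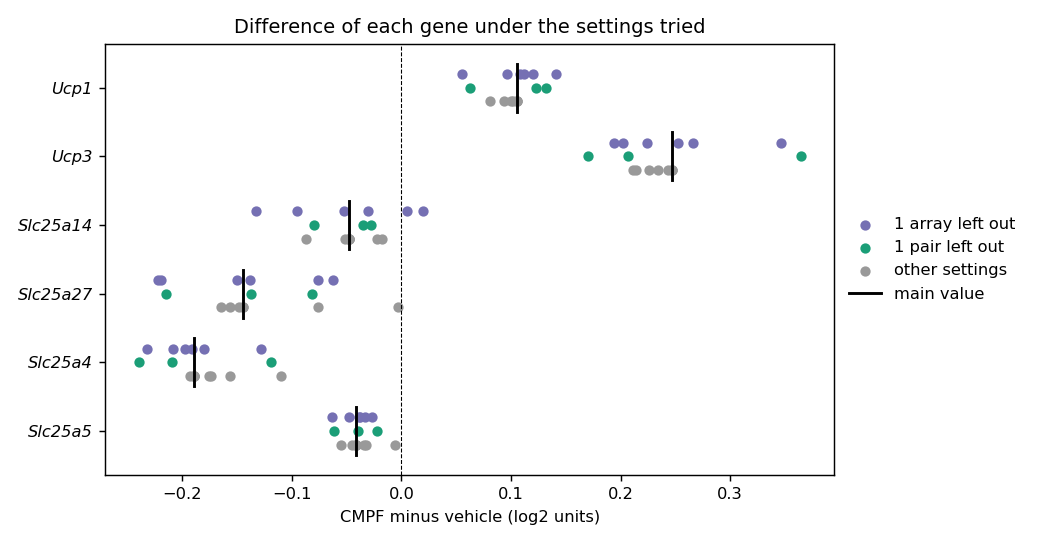
Difference (CMPF minus vehicle, log2 units, horizontal axis) of each gene under every setting tried: 1 array left out (purple), 1 pair left out (green), other settings (grey) and the main value (black bar). Ucp3 runs from 0.17 to 0.36 and Slc25a4 from -0.24 to -0.11, and the points of Slc25a14 lie on both sides of 0.

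Of the other genes of the carrier family, 42 of 45 listed were measured and limma called 0, with 0 at an unadjusted p under 0.05 in either fit. Their median difference was 0.012, and 0.0018 for all genes. Of the 42, 1 was higher and 3 were lower in all 3 pairs, 0 had groups without overlap, and 41 lay within 0.2 log2 units. Slc25a30, a kidney carrier close to UCP5, differed by 0.058 (SE 0.160). Slc25a31, the adenine nucleotide carrier of sperm cells, read 3.53, 4.66 and 3.66 with vehicle and 3.45, 4.63 and 3.97 with CMPF. Both arrays of number 2 were therefore the highest of their group, and the difference was 0.068 (SE 0.374). Slc25a3, the phosphate carrier that supplies the ATP synthase, differed by 0.014 (SE 0.090). The carnitine carrier Slc25a20 differed by 0.014 (SE 0.132), the oxoglutarate carrier Slc25a11 by 0.079 (SE 0.111) and the dicarboxylate carrier Slc25a10 by 0.12 (SE 0.177). The aspartate and glutamate carrier Slc25a12 differed by 0.0097 (SE 0.105). Slc25a22, a glutamate carrier, had the largest difference of these named carriers, 0.19 (SE 0.125), with pair differences of 0.20, 0.47 and -0.095.

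The ATP synthase, to which the adenine nucleotide carriers hand their ADP, had 15 of 17 listed genes measured, 2 higher and 2 lower in all 3 pairs, and a median difference of -0.023. Its catalytic subunit Atp5b differed by -0.022 (SE 0.079) and its inhibitor Atpif1 by -0.045 (SE 0.082). Among 13 partners in nucleotide exchange the median was 0.024, with 1 higher and 1 lower in all 3 pairs. Vdac1, the outer membrane channel for ATP and ADP, differed by -0.037 (SE 0.119), and Ppif, cyclophilin D of the permeability pore, by 0.0029 (SE 0.112). Hk2, a hexokinase that docks on mitochondria, differed by 0.17 (SE 0.380), and its values spread widely in both groups. Ckb, the brain-type creatine kinase, read 11.32, 11.31 and 11.46 with vehicle and 11.19, 11.30 and 11.30 with CMPF. Its difference was -0.10 (SE 0.089), with pair differences of -0.13, -0.010 and -0.16. It was lower without overlap, as were 2.11% of all genes, but barely: the lowest vehicle array read 11.310 and the highest CMPF array 11.304. Limma called 0 genes of either list, and 0 reached an unadjusted p under 0.05.

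Among 18 genes that control uncoupling protein transcription, limma called 0, the median difference was -0.019, and 1 was higher and 1 lower in all 3 pairs. The PPAR receptor genes Ppara, Ppard and Pparg differed by -0.038 (SE 0.142), -0.041 (SE 0.129) and -0.054 (SE 0.112). The coactivator Ppargc1a differed by -0.035 (SE 0.089), Foxa1 by -0.043 (SE 0.243) and Srebf1 by -0.018 (SE 0.162). Of the 18 genes 13 had a negative and 5 a positive difference. The largest positive one was that of Thra, 0.15 (SE 0.090), which was higher without overlap, as were 2.41% of all genes. Sirt1, a deacetylase reported to repress uncoupling protein transcription, differed by -0.17 (SE 0.155), with pair differences of -0.23, -0.44 and 0.15.

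PPAR targets of fatty acid use, to which Ucp3 also belongs by function, had 19 of 23 listed genes measured. Of these 16 had a positive difference, 8 were higher and 1 was lower in all 3 pairs, and the median was 0.12. Of all 18193 genes 50.7% had a positive difference, 11.8% were higher and 11.1% were lower in all pairs, and the median was 0.0018. Limma called 0 of them, and at an unadjusted p under 0.05 it marked 0 without and 2 with the block. The list was drawn up with an earlier count of PPAR targets on these arrays known, so it is no independent evidence of direction. Cpt1a, which admits fatty acids to mitochondria, differed by 0.13, 0.12 and 0.20 in the 3 pairs and Plin2, a lipid droplet coat, by 0.16, 0.13 and 0.44. Angptl4, a secreted inhibitor of lipoprotein lipase, differed by 0.20 (SE 0.396), Acadm, of fatty acid oxidation, by 0.15 (SE 0.137) and Pdk4 by -0.0093 (SE 0.224). The pair medians of the list were -0.023, 0.12 and 0.13, while Ucp3 had its larger differences in pairs 1 and 2. The median of the list was 0.012 without CMPF 2, 0.039 without vehicle 1, and 0.052 with the acinar mean as a covariate. Other settings raised it, to 0.17 without CMPF 1 and to 0.14 without pair 1. It was also 0.14 without vehicle 2 and with quantile normalization applied again. Acinar markers lay in the same direction, 8 of 11 higher and 1 lower in all 3 pairs, with pair medians of 0.27, 0.044 and 0.85. The part of acinar RNA in the differences of the PPAR targets was not tested.

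Uncoupling has been studied as a brake on mitochondrial superoxide, and 11 of 12 genes that remove superoxide and peroxide in mitochondria were measured. Limma called 0, the median was -0.025, and 1 was higher and 2 were lower in all 3 pairs. Sod2, the matrix superoxide dismutase, differed by -0.025 (SE 0.142) and Nnt, the transhydrogenase that makes NADPH in the matrix, by -0.11 (SE 0.086).

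**Figure D4:**
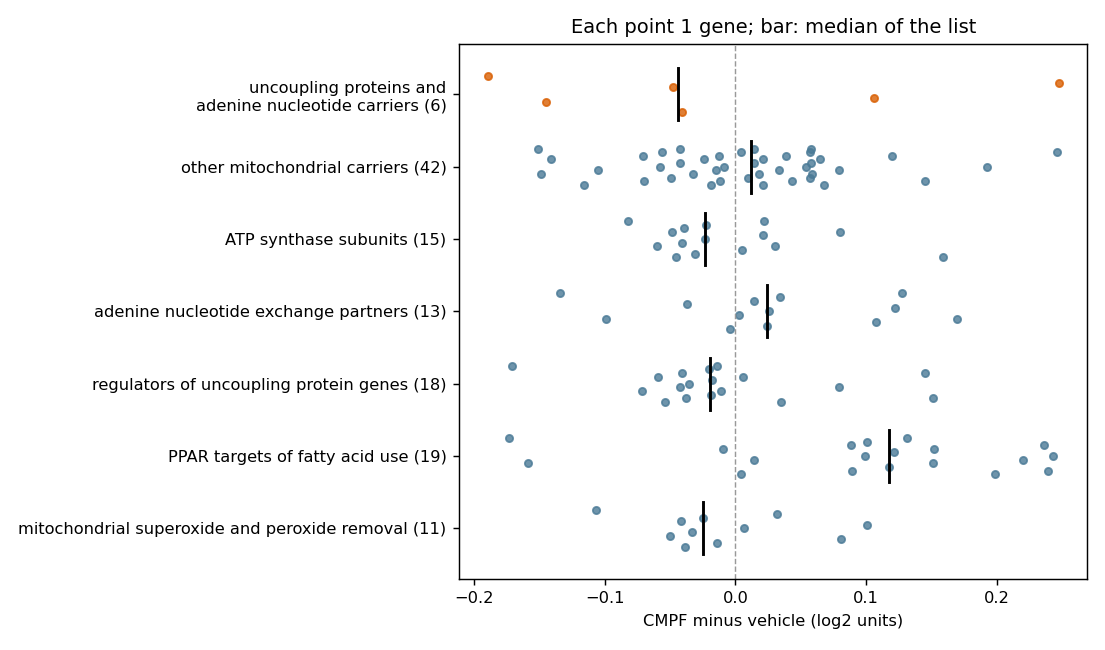
CMPF minus vehicle (log2 units, horizontal axis) for each measured gene of 7 lists, with the number of genes in brackets; each point is 1 gene, black bars are list medians and the dashed line marks 0. PPAR targets have their median at 0.12, and the other pathway lists have medians between -0.025 and 0.024.

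For the 3 genes brighter than the median of all genes, the nearest patterns over the 6 arrays were sought among 9095 other bright genes, as the root mean square gap between deviations from each gene's own mean. Slc25a14 was closest to Atp5g1, a gene for the c subunit of the ATP synthase, with a gap of 0.0079, then to Sp4 (0.021) and Prkce (0.026), against a root mean square deviation of 0.109 of its own. Slc25a4, with a deviation of 0.114, was closest to Surf4 (0.026), Tle5 (0.031) and Macroh2a2 (0.033). Slc25a5, with a deviation of only 0.031, was closest to Slc30a9 (0.013), Uvrag (0.015) and Efcab14 (0.016). With 6 arrays and so many genes, gaps of this size describe likeness on these arrays only.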

How the data were processed

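The deposited values are log2 levels made by the authors with RMA. The submitters' processing notes name Affymetrix Expression Console 1.1 for this. RMA gives the probes of all arrays 1 distribution before they are summarised to probe sets, and it compresses differences of dim genes. The summarised values kept small offsets, with array medians from 5.07 to 5.14. On its settings and on the genome build nothing is given in the sources used here, and the number of arrays limits the precision. Of 45101 probe sets, 64 controls were left out. Of the rest, 34945 were listed with 1 gene, 932 with several and 9160 with none in the platform annotation, and 34741 matched RefSeq (GRCm38.p6) by Entrez ID with 0 symbols changed. Ucp2 is listed with no probe set there and is not analysed here. No value column lacked a sample.

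The groups were compared with lmFit and eBayes of limma 3.58.1 (R 4.3.3). Tests were two-sided and adjusted by Benjamini-Hochberg over 18193 genes or 45037 probe sets, with a threshold of 0.05. Nothing in the labels says that the numbered samples came from separate preparations, so p-values measure only how these samples spread, and that spread may be technical. Members, lists and named genes were chosen with earlier results of these data known: the 6 genes, 28 genes of the lists by name, and for each bright member its 3 nearest genes. Other genes named in the text as examples, Adipoq among them, were chosen after their values were seen. Across genes, deviations from group means had a correlation of 0.488 to 0.638 between arrays sharing a number and of -0.555 to 0.0885 between other arrays of different groups. On this basis, which is the data and no label, the numbers were treated as pairs. No 2 arrays held identical values. The alternatives were the replicate block, leaving out arrays or pairs, centring each array, quantile normalization applied again, means of probe sets, 2 filters on dim genes, array weights, a variance trend and the acinar covariate.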

Additional observations from a re-analysis of the deposited data

How the results depend on the processing

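No gene passed under any setting tried (count 0), the 6 genes included. With the replicate block the count was 0 for the genes and for the 14 further probe sets. The block changed no call. Directions were kept for Ucp1 (16 alternatives), Ucp3 (17), Slc25a27 (16), Slc25a4 (18) and Slc25a5 (18). Leaving out 1 array gave 0.056 to 0.14 for Ucp1, 0.19 to 0.35 for Ucp3, -0.22 to -0.062 for Slc25a27, -0.23 to -0.13 for Slc25a4 and -0.064 to -0.026 for Slc25a5. The differences nearest 0 were -0.0060 for Slc25a5, when quantile normalization was applied again, and -0.0027 for Slc25a27, as the mean of its probe sets. Slc25a14 ran from -0.13 to 0.020, and its sign turned without vehicle 1 (0.0049) and without CMPF 2 (0.020). Ucp1 and Slc25a27 lie below both filters on dim genes and Ucp3 below the filter at the median, so those settings give no value for them. The lowest adjusted p of any of the 6 genes was 0.978. The lowest unadjusted limma p was 0.0089 for Ucp3, without CMPF 3, and 0.037 for Slc25a4, with the variance trend. Dim values, as for Ucp1, limit what a small difference shows.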
